A study of Mus musculus with 20 samples.

Results

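Setdb1 peaks of young and old mouse liver were compared on chromosomes 1 to 19. Every peak of the Setdb1 list of young liver and of the Setdb1 list of old liver that lies on these chromosomes was included, which gave 62949 peaks, 49271 from young and 13678 from old liver. They belong to 6 peak lists, for Setdb1, Kap1 and H3K14ac at both ages, which hold 175329 peaks in all and 170428 on the same chromosomes. The livers came from wild-type male C57BL/6 mice aged 3 months (young) or 21 months (old), and chromatin of snap-frozen tissue was immunoprecipitated with a rabbit polyclonal antibody against Setdb1 and sequenced (ChIP-Seq). The labels give 3 Setdb1 samples per age, but the reads of an age were merged before peaks were called, so that 1 list per age exists. Bulk liver was used, with hepatocytes and the other cells of the organ together, so that fewer cells with a bound site and less binding per cell cannot be told apart, and the lists hold no measurement by which the tissue could be checked against marker genes. Because of the merging, a spread between livers cannot be given, and no difference between the ages was tested. The 95% intervals given with ratios and shares cover the counting error of the peaks only. A list holds positions without heights, scores or read numbers, so the sequencing depth behind a peak is unknown, and the number of peaks in a list also moves with depth and with the threshold of the peak caller. For this reason the text compares places within the genome with each other. The relative ratio is the old to young ratio of peak numbers at a place, divided by the old to young ratio over chromosomes 1 to 19, so that 1 means that old peaks were there as many, per young peak, as over all these chromosomes together.

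Setdb1 is an enzyme that methylates lysine 9 of histone H3, a mark of silenced chromatin. It is brought to DNA largely through Kap1, the product of Trim28, which in turn is bound by zinc finger proteins with a KRAB domain. In many cell types the pair is known for silencing retroviral sequences and for binding to clusters of zinc finger genes, and Setdb1 also reads histone H3 that is acetylated on lysine 14.

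The sequences below show what the peaks look like at the places the results turn on. They are read from GRCm38 on the + strand, 5′ to 3′, are each 200 bp long and overlap no annotated exon. Capitals mark the 6-letter words that were commonest in young peaks relative to the genome, on either strand. They are CTGCAG first, next the word GCAGCA, then the word GCATGC, then the word GCTGCA, then the word CACTGC and last the word CTGCAC. The first pair lies at genes of lipid secretion and synthesis, at chr4:6276269-6276468, whose midpoint is 738 bp from the start site of Cyp7a1, the rate-limiting enzyme of bile acid synthesis, and at chr5:17853439-17853638, in an intron of the fatty acid transporter gene Cd36.
Cyp7a1, young peak: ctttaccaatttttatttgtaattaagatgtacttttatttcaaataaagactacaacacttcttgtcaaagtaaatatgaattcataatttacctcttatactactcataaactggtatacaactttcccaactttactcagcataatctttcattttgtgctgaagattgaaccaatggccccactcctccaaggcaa
Cd36, old peak: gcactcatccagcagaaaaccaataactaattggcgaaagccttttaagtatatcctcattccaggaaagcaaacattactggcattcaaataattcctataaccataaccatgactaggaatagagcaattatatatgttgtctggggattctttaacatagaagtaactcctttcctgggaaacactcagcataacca
The second pair lies between genes at start sites of olfactory receptors, whose relative ratio was the highest of the 12 gene families with at least 50 young peaks. The young peak at chr19:13338662-13338861 is 100 bp from the start of Olfr1466, and the old peak at chr7:103349716-103349915 is 147 bp from that of Olfr600.
Olfr1466, young peak: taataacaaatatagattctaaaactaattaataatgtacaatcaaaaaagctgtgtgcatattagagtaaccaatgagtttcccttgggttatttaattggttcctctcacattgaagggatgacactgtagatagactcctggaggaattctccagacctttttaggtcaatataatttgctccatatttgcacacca
Olfr600, old peak: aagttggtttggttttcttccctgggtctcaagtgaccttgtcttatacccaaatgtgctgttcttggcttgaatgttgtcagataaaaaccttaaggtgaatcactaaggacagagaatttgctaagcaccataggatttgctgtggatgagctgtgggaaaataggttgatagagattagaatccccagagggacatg
At the start of Nrsn1, the gene of a vesicle protein of neurons, a young peak at chr13:25263027-25263226 and an old peak at chr13:25262999-25263198 share most of their bases.
Nrsn1, young peak: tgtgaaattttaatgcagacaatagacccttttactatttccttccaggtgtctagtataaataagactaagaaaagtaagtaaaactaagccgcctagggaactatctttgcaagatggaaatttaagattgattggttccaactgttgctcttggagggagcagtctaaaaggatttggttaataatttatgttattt
Nrsn1, old peak: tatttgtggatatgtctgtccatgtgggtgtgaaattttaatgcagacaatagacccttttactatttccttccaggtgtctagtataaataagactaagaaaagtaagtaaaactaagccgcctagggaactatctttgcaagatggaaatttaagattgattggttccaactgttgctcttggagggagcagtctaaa
At chr9:3016088-3016287, in an intron of Gm10720, a peak has the same start and the same end in both lists, and 97.5% of it is soft-masked, that is marked as a repeat in the reference.
Gm10720, both ages: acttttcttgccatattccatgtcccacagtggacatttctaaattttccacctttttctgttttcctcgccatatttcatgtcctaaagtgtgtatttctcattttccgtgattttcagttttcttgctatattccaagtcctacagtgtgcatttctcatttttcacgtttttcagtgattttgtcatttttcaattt
The next pair are the young and the old peak with the most capitals among peaks without soft-masked bases, at chr17:70500032-70500231 in an intron of Dlgap1 and at chr5:3910831-3911030 between genes.
Dlgap1, young peak: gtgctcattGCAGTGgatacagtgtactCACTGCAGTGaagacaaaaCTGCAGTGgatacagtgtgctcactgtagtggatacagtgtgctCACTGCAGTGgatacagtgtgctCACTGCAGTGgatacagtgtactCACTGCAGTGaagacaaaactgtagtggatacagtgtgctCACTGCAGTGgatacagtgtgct
between genes on chromosome 5, old peak: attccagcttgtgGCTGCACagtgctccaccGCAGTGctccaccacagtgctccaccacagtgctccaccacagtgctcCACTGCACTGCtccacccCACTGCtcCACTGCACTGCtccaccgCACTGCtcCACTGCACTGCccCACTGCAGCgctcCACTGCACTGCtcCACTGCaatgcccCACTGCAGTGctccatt
The last pair lies between genes in the 1 Mb bins with the highest and the lowest ratio of old to young peaks among bins with at least 20 young peaks. The old peak at chr1:46425203-46425402 is 289 bp from a start site of Dnah7c, and the young peak at chr19:3991901-3992100 is 751 bp from a start site of Tbx10.
Dnah7c, old peak: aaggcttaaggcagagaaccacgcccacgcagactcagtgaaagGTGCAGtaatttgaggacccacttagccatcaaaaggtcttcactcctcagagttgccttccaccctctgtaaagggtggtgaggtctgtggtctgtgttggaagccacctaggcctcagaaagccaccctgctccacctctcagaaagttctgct
Tbx10, young peak: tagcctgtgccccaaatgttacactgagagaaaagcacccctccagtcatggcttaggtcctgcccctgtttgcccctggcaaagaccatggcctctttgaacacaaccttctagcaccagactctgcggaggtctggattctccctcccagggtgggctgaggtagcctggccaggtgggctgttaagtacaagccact

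Genome-wide, the old list held 13678 peaks against 49271 in the young list, a ratio of 0.278 (95% exact interval 0.272 to 0.283). This is 20.6 young and 5.71 old peaks per Mb of known sequence over 2396 Mb. The median distance from a peak to the next was 30.1 kb in young and 96.5 kb in old liver. The same ratio was 0.454 for Kap1 and 1.07 for H3K14ac, so Setdb1 had the lowest ratio of the 3.

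Nearly all Setdb1 peaks had the same width, exactly 200 bp in 97.2% of young and 98.2% of old peaks. The few wider peaks differed from the rest in what they overlapped. Wider than 200 bp and up to 500 bp there were 1251 young and 212 old peaks, a relative ratio of 0.610 (0.525 to 0.707), whose interval lies below 1. Over 500 bp there were 114 young and 40 old peaks, with a relative ratio of 1.26 (0.859 to 1.83). Of the peaks over 500 bp, 72.8% of the young and 70% of the old shared bases with a Kap1 peak of the same age, against 1.63% and 1.25% of the 200 bp peaks. For H3K14ac peaks the shares were 57% and 57.5% of the widest class against 0.712% and 0.745% of the 200 bp peaks. A wider peak has more bases with which to meet another, and the part of width alone was not tested. Peaks over 500 bp also recurred between the ages: 27 of the 114 young ones and 19 of the 40 old ones met a Setdb1 peak of the other age, whereas 0.766% of the young and 2.79% of the old 200 bp peaks did. The widest young peak, chr17:39842932-39848903 (5972 bp), covered start sites of the noncoding genes Gm26917 and Gm42418. It also overlapped the annotated entries CT010467.1 and AY036118, and the 200 bp at its middle had 71% GC. The widest old peak, chr1:88248734-88251502 (2769 bp), lay in an intron of Mroh2a. Both met Kap1 and H3K14ac peaks of their age. Whether the overlaps and the recurrence of wide peaks stand for shared binding was not tested.

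Chromosome 19 departed most from the genome-wide ratio. It held 1911 young and 342 old peaks, and its relative ratio was 0.645 (0.573 to 0.724). Its density was the highest of the chromosomes in young liver, 32.8 peaks per Mb, whereas in old liver it was 5.88 per Mb, close to the mean of 5.71. The 18 other chromosomes lay between 14.9 and 22.2 young peaks per Mb, so chromosome 19 stood apart in the young list and not in the old one. Neither Kap1 nor H3K14ac showed this, with relative ratios on chromosome 19 of 1.01 and 0.914 against their own genome-wide ratios. Leaving chromosome 19 out raised the ratio of the rest to 1.01 times the whole.

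**Figure D1:**
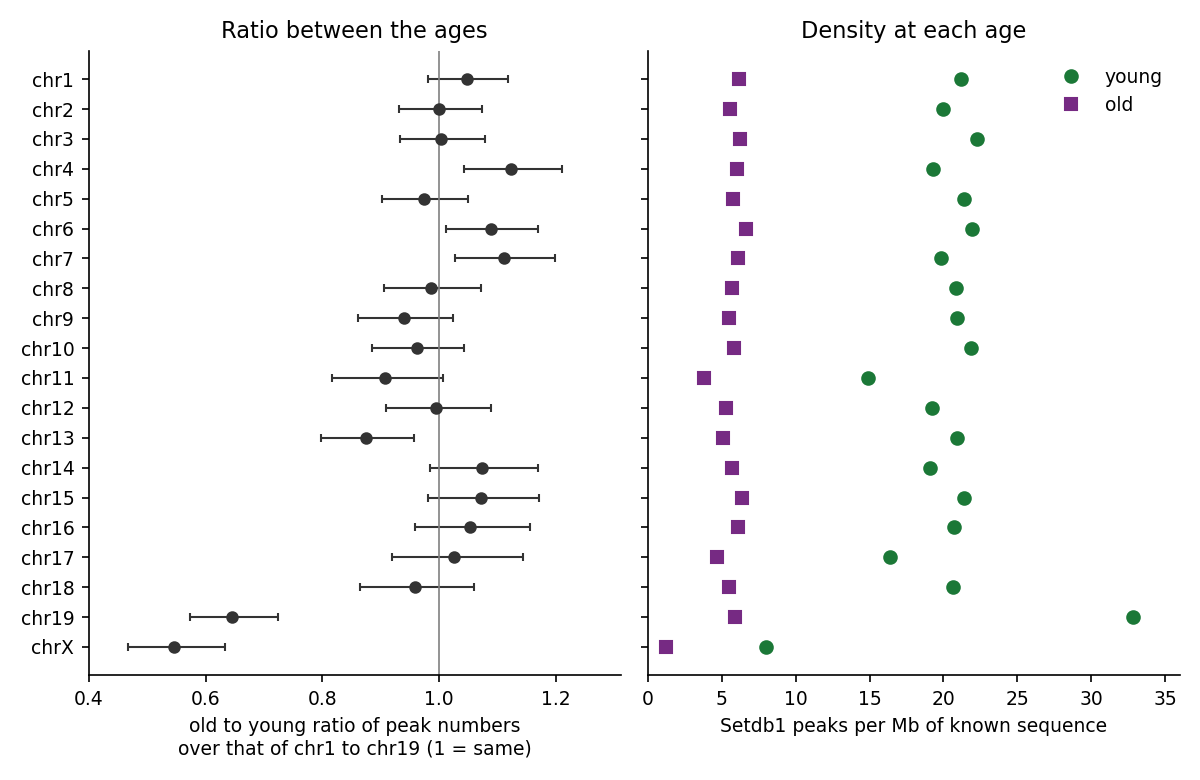
Left, old to young ratio of Setdb1 peak numbers on each chromosome divided by that of chromosomes 1 to 19, with 95% exact intervals for counting error, and right, peaks per Mb of known sequence in the young (circles) and old (squares) list. Chromosome 19 lies at 0.645 with 32.8 young and 5.88 old peaks per Mb, and the X chromosome, which is not among the compared peaks, at 0.545.

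The other chromosomes were spread far less. Chromosome 13 was the next lowest at 0.874 (0.798 to 0.957), and chromosome 4 was the highest at 1.12 (1.04 to 1.21), followed by chromosome 7 at 1.11 (1.03 to 1.20) and chromosome 6 at 1.09 (1.01 to 1.17). The remaining 14 autosomes had intervals that included 1. Chromosomes 11 and 17 were sparse at both ages, with 14.9 and 16.4 young and 3.76 and 4.66 old peaks per Mb, and their relative ratios of 0.907 (0.816 to 1.01) and 1.03 (0.919 to 1.14) were near the whole.

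Within chromosomes, peaks were counted by midpoint in bins of 1 Mb, of which 2403 had at least 500 kb of known sequence. A bin held a median of 20 young peaks (range 0 to 56) and 5 old peaks (range 0 to 30). In 144 bins there was no old peak, in 6 of these no young peak either, and 22 bins held more old than young peaks. Bins rich in young peaks were only weakly those rich in old peaks: Pearson's r across the 2403 bins was 0.316 and Spearman's rho 0.295. For Kap1 the values were 0.881 and 0.461, and for H3K14ac 0.769 and 0.453. These are descriptions across bins, which are not replicates, and bins of a list share its libraries and depth, while Setdb1 counts per bin are lower than those of the richest Kap1 bins.

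**Figure D2:**
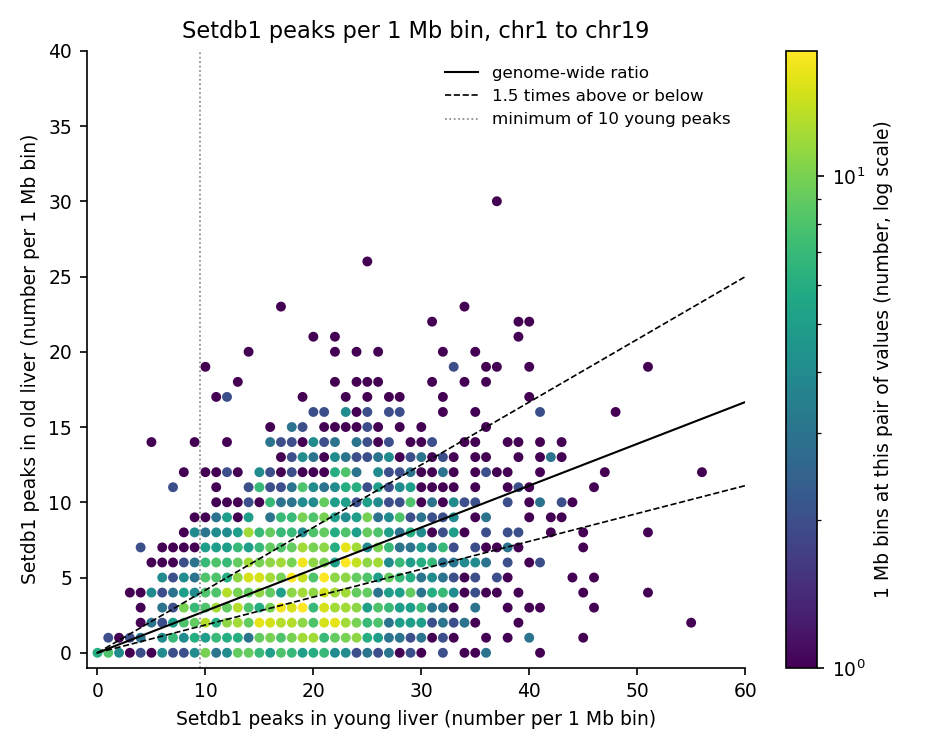
Setdb1 peaks per 1 Mb bin in old liver (y axis) against young liver (x axis) for the 2403 bins, with colour for the number of bins at a pair of values. The solid line is the genome-wide ratio of 0.278 and the dashed lines are 1.5 times above and below it, and the points scatter widely around the line, with bins at 0 old peaks up to 41 young peaks.

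Of the 2233 bins with at least 10 young peaks, 514 had a ratio at least 1.5 times above the genome-wide one (23%) and 790 had a ratio at least 1.5 times below it (35.4%), or 1304 in either direction (58.4%). The minimum was set on the young peaks alone, which leans the ratios of the bins kept towards low values, so the split between the directions is not read as a result. With so few old peaks per bin, much of this is within counting error: in 137 bins the 95% interval of the relative ratio lay above 1 and in 154 below 1, together 13.0% of the bins. The middle 80% of bins ran from a relative ratio of 0.212 to 2.02. On chromosome 19, 31 of 58 bins lay 1.5 times below (53.4%) and 5 above (8.62%), against 35.4% and 23% over all chromosomes. The neighbour of a bin told little about it, with a Spearman's rho of 0.0576 between the relative ratios of 2384 neighbouring pairs.

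By the rule for named bins, which takes bins with at least 20 young peaks and ranks them by the ratio, so that a low young number itself raises a bin, the highest ratio was in chr1:46000001-47000000, with 20 young and 21 old peaks (relative ratio 3.78, 1.95 to 7.35), which overlaps the axonemal dynein genes Dnah7b and Dnah7c and the zinc transporter gene Slc39a10. Next came chr15:56000001-57000000 with 25 young and 26 old peaks (3.75, 2.08 to 6.76), where Has2, a hyaluronan synthase gene, is the sole protein-coding gene. Those 2 bins were the only ones of 1269 with at least as many old as young peaks. The next 3 were chr4:70000001-71000000 with 22 and 21 peaks, over Cdk5rap2 and Megf9, chr2:88000001-89000000 with 22 and 20 peaks, which overlaps 46 protein-coding genes and lies in an olfactory receptor cluster, and chr10:71000001-72000000 with 24 and 20 peaks, over Bicc1 and the mitochondrial transcription factor gene Tfam. In the same order, Kap1 had 30, 9, 0, 20 and 8 old peaks against 36, 39, 16, 53 and 19 young ones in these bins, so that the third held no old Kap1 peak.

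At the other end, 43 of the 1269 bins held no old peak. The 5 with the most young peaks among them were chr19:3000001-4000000 with 41, chr7:67000001-68000000, chr8:50000001-51000000 and chr9:72000001-73000000 with 36 each, and chr16:91000001-92000000 with 35. For 41 young peaks the genome-wide ratio gives 11.4 old ones, and the upper limit of the relative ratio at 0 old peaks was 0.339. The bin on chromosome 19 overlaps Cpt1a, which admits long-chain fatty acids to mitochondria, Lrp5 and the methyltransferase gene Kmt5b, and that on chromosome 7 overlaps Igf1r, the receptor of insulin-like growth factor, and Mef2a. The bin on chromosome 16 holds the interferon receptor genes Ifnar1, Ifnar2 and Ifngr2, and that on chromosome 8 holds no protein-coding gene. H3K14ac peaks were present at both ages in 4 of these bins, at 21 and 28 in the first, and the bin on chromosome 8 had 0 young and 8 old.

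The bins with the most young peaks were chr19:13000001-14000000 (56 young, 12 old), which lies in an olfactory receptor cluster, chr19:35000001-36000000 (55 young, 2 old), where only Htr7, a serotonin receptor gene, is protein-coding, and then 3 bins with 51 each. The relative ratio was 0.772 (0.377 to 1.46) in the first and 0.131 (0.0155 to 0.496) in the second. The 3 tied bins differed in their old peaks. They were chr19:9000001-10000000 with 8 old peaks (relative ratio 0.565, 0.232 to 1.20), over Ahnak and the ferritin gene Fth1, chr19:38000001-39000000 with 4 (0.283, 0.0742 to 0.769), over the retinol carrier gene Rbp4, and chr7:12000001-13000000 with 19 (1.34, 0.748 to 2.31), over vomeronasal receptor and Zfp genes. The bins with the most old peaks were chr10:58000001-59000000 with 30 old and 37 young peaks, the Has2 bin with 26, and a pair with 23 old peaks each. Of this pair, chr17:36000001-37000000 had 17 young peaks and a relative ratio of 4.87 (2.49 to 9.72), and carries class I genes of the major histocompatibility complex. The other, chr4:147000001-148000000, had 34 young peaks and a relative ratio of 2.44 (1.37 to 4.26), and carries a cluster of Zfp genes.

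The positions of the bins mattered for these counts. When the chromosomes were cut into 100 kb pieces, the numbers of peaks in neighbouring pieces were correlated, and more so where both lay in the same Mb. For young Setdb1 the 9 correlations within a Mb ran from 0.189 to 0.229, each over 2378 to 2392 pairs, and the correlation across a multiple of 1 Mb was 0.0950. For old Setdb1 they were 0.128 to 0.221 and 0.0631. The step was larger in the other lists, from 0.579 to 0.825 within and 0.0676 across for young Kap1, and from 0.411 to 0.756 and 0.134 for young H3K14ac. The density of peaks thus changed at multiples of 1 Mb in each of the 6 lists, which are positions set by counting bases and not by the sequence. PeakSeq, with which the lists were made, handles a chromosome in windows along its length, and the part of that in these steps was not tested. With bins that start 500 kb after a multiple of 1 Mb, the share of bins past 1.5 times was 53.5%, and the mean squared difference of old from expected peaks, divided by the expected number, was 2.16 in place of 2.85. For gene families and for base composition the text also gives an expectation from the old to young ratio of each young peak's own 1 Mb bin. The peaks described are themselves part of those bins, so this expectation moves with them, the more so the larger their share of the bin.

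**Figure D3:**
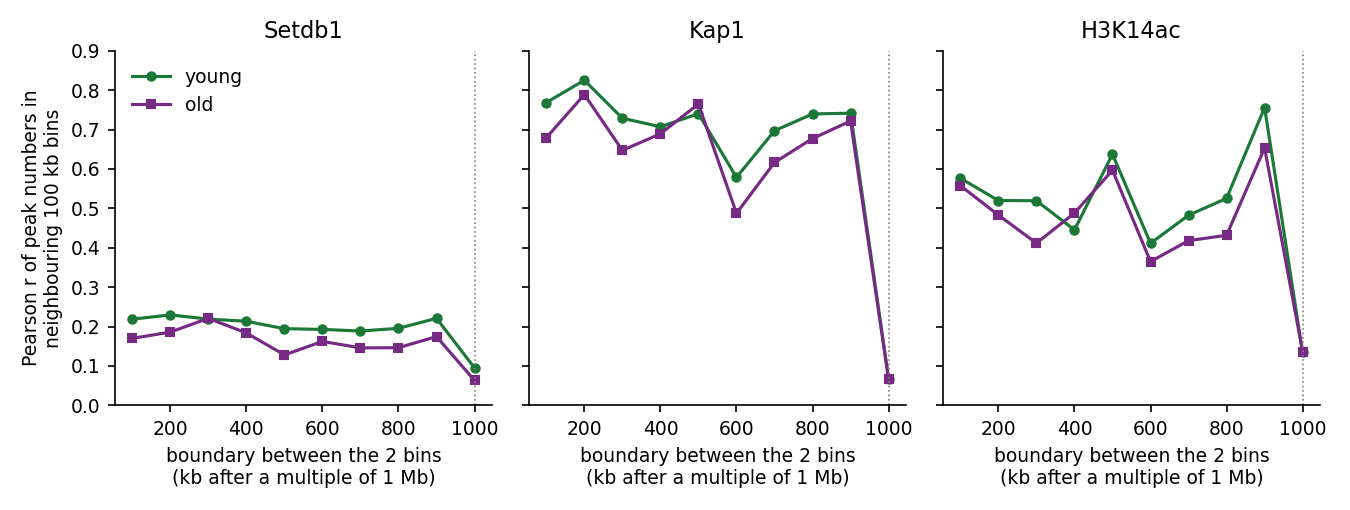
Pearson's r between the peak numbers of neighbouring 100 kb bins, by the place of the boundary between them in kb after a multiple of 1 Mb, for the young (circles) and old (squares) lists of Setdb1, Kap1 and H3K14ac. At 1000 kb, where the boundary is itself a multiple of 1 Mb, r drops in all 6 lists, to 0.0950 for young and 0.0631 for old Setdb1.

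Gene density had a small relation to the ratio. The bins were split by their number of protein-coding start sites into 5 groups of 480 or 481. Bins tied at the edge between groups were placed in chromosome order, so that later chromosomes went to the denser group. The part of that in the ratios was not tested. The density of young peaks declined from 22.5 per Mb in the most gene-poor group, with a median of 0 start sites, to 18.7 per Mb in the most gene-dense, with a median of 21. Old peaks declined from 6.82 to 5.24 per Mb. The relative ratio was 1.09 (1.05 to 1.14) in the most gene-poor group, then 0.979, 0.966 and 0.939, and 1.01 (0.965 to 1.06) in the most gene-dense, so that it did not run one way. Across the 2403 bins Spearman's rho with the number of start sites was -0.20 for young and -0.17 for old Setdb1, whereas it was 0.300 and 0.473 for H3K14ac.

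Base composition was related to the ratio more clearly, and in opposite directions at the scale of the bin and at that of the peak. Over the 5 groups of bins by GC content the relative ratio declined from 1.129 (1.09 to 1.17) where the median GC content was 37.4% to 0.849 (0.807 to 0.892) where it was 46.8%. Over the 5 groups by soft-masked share it climbed from 0.808 (0.769 to 0.850) in the bins poorest in repeats to 1.24 (1.20 to 1.29) in the richest. The 2 properties go together, with a Spearman's rho of -0.69 across bins. When each of the 5 groups by GC content was split at its median soft-masked share, the bins with more repeats had the higher relative ratio in all 5, at 1.24 (1.18 to 1.31) against 1.01 (0.958 to 1.07) in the most GC-poor group and 0.893 (0.833 to 0.957) against 0.804 (0.747 to 0.864) in the most GC-rich. The intervals of the parts lay apart in the 3 GC-poorer groups and overlapped in the 2 GC-richer ones. When each of the 5 groups by soft-masked share was split at its median GC content, the GC-poorer bins had the higher relative ratio in 4 of 5, but the intervals of the parts overlapped in all 5, with 0.805 (0.750 to 0.862) in the GC-poorer and 0.812 (0.755 to 0.873) in the GC-richer part of the bins poorest in repeats, and 1.24 (1.18 to 1.31) and 1.24 (1.17 to 1.30) in the richest. In the split by repeats the GC content also differed slightly, with medians of 37.7% and 37.1% in the first group.

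For the 200 bp at the peak itself the ratio went up with GC content. Peaks with under 30% GC numbered 778 in young and 138 in old liver, a relative ratio of 0.639 (0.529 to 0.767), and peaks with 60% or more numbered 619 and 216, a relative ratio of 1.26 (1.07 to 1.47). Against the expectation from each peak's own bin the range was wider, from 0.582 (0.489 to 0.687) to 1.37 (1.19 to 1.56). Within each of the 5 groups of bins by GC content, peaks with 50% GC or more had a higher relative ratio than peaks under 40%, at 1.55 against 0.981 in the most GC-poor group and 0.908 against 0.690 in the most GC-rich. The mean GC content was 44.1% ± 6.98 (SD over 49271 peaks) in young and 44.7% ± 6.98 (SD over 13678 peaks) in old liver. These SDs describe single peaks and do not say whether the means differ. Peaks were scarce in the most AT-rich sequence at both ages: 200 bp windows with under 30% GC make up 5.90% of the genome but 1.58% of young and 1.01% of old peaks.

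**Figure D4:**
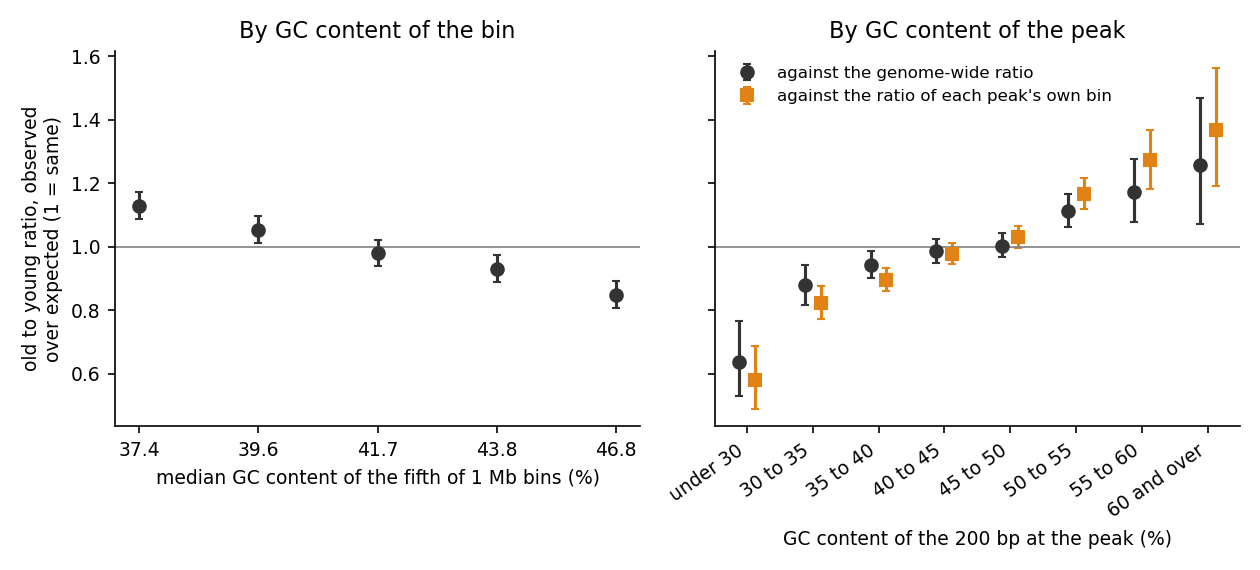
Old to young ratio of Setdb1 peaks, observed over expected, for 5 equal groups of 1 Mb bins ordered by GC content (left) and for classes of peaks by the GC content of their 200 bp (right), with 95% intervals for counting error. Circles use the genome-wide ratio and squares the ratio of each peak's own bin. The left panel declines from 1.129 to 0.849 and the right panel climbs from 0.639 to 1.26.

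Peaks that consist of repeats alone were rare at both ages. Windows that are 100% soft-masked make up 9.35% of the genome, 2.35% of the young peaks and 2.49% of the old peaks, and windows free of soft-masked bases make up 22.5%, 28.9% and 28.8%. Only uniquely aligned reads were kept, which removes reads from repeats with near-identical copies, and the part of that in these shares was not tested. Between the ages these classes hardly moved, with relative ratios of 1.06 (0.934 to 1.19) and 0.996 (0.961 to 1.03). Of the classes in between, peaks with 60 to 80% soft-masked bases were at 1.12 (1.04 to 1.20), and the intervals of the others included 1. Against their own bins the 60 to 80% class was at 1.06 (0.991 to 1.12).

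Short words were alike at both ages. Of 2032 words of 6 letters present in at least 0.5% of the 200 bp windows of the genome, each counted with its reverse complement, CTGCAG was the most over-represented, in 9.80% of young and 10.6% of old peaks against 7.23% of the genome's windows. GCAGCA, which reads TGCTGC on the other strand, came next, in 14.3%, 15.5% and 10.6%. These words overlap each other in sequence, and the printed Dlgap1 peak shows how they can follow one another. The least common relative to the genome was TATATA, in 5.71%, 5.0% and 9.02%. The log2 ratios of peaks over genome were alike in both lists, with a Pearson's r of 0.908 across words, which share letters and the base composition of the peaks. Onecut1 (HNF6), a liver transcription factor, is known to bind sites that hold the letters ATCAAT or, in others, the letters ATCGAT. The former, counted with its reverse complement ATTGAT, was in 9.44% of young and 9.19% of old peaks against 10.4% of windows, and the latter, which is its own reverse complement, in 0.572%, 0.483% and 0.821%. A match of letters is no binding site, and the absence of one says only that these letters are not in the window.

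Start sites were not favoured at either age. The midpoint of 1973 young peaks, or 4.0% (95% Wilson interval 3.83% to 4.18%), and of 560 old peaks, or 4.09% (3.77% to 4.44%), lay within 1 kb of an annotated start site of any transcript, against 4.47% of the genome's 200 bp windows. The relative ratio there was 1.02 (0.929 to 1.12). Somewhat more of these peaks lay after the start than before it, 1030 against 943 in young liver, or 52.2% (95% Wilson interval 50% to 54.4%), and 311 against 249 in old liver, or 55.5% (51.4% to 59.6%). The young interval just includes an even split and the old one does not, and the intervals of the ages overlap. The median distance to the nearest start site was 21.7 kb in young and 22.4 kb in old liver. Peaks between genes made up 52.3% of the young and 54.4% of the old list, with a relative ratio of 1.04 (1.01 to 1.07), and introns 40.5% and 38.1%, with 0.941 (0.912 to 0.970). Against the ratio of each peak's own bin these became 1.00 (0.981 to 1.03) and 0.985 (0.959 to 1.01), with both intervals including 1.

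Within 1 kb of a start site of a protein-coding transcript, 766 genes had a young peak and 236 had an old peak, out of 20696. Both were found at 30 genes, which is 3.92% of the genes with a young peak and 12.7% of those with an old peak. These are above the shares over all genes, where 236 of 20696 had an old peak and 766 of 20696 a young one. What lies behind the difference was not tested. At 13 of the 30 genes the young and the old peak shared bases. Ranked by the summed distance of both peaks from the start, the first was Adamts18, the gene of a secreted metalloprotease, with a young peak at chr8:113848457-113848656 and an old one at chr8:113848601-113848800. Mbp (myelin basic protein), Vmn1r70 (a pheromone receptor) and Nrsn1 were the others of the 12 nearest whose peaks shared bases. At Evc, Cyp2ab1, Smug1, Olfr196, BC117090, Rfx6, Tdpoz3 and Trmt9b the peaks of the ages lay apart. The GC content of these peaks covered a wide range, from 33.5% in the young Nrsn1 peak printed above to 71.5% in the young Adamts18 peak.

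Among classes of genes, peaks in protein-coding gene bodies had a ratio slightly below the genome-wide one, with 19347 young and 5089 old peaks and a relative ratio of 0.948 (0.919 to 0.977), which against their own bins was 0.990 (0.963 to 1.02). Peaks in lincRNA genes numbered 2360 and 608, with a relative ratio of 0.928 (0.847 to 1.01). Unprocessed pseudogenes, copies of genes that arose by duplication, had 161 and 64 peaks and a relative ratio of 1.43 (1.05 to 1.92), which was 1.14 (0.874 to 1.45) against their own bins. Gene length made little difference, with relative ratios from 0.929 (0.880 to 0.981) for genes of 50 to 200 kb to 1.07 (0.915 to 1.26) for genes under 10 kb.

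Gene families were then taken by symbol, with peaks counted in gene bodies and 5 kb on either side. Of 26 families, 12 had at least 50 young peaks, and their relative ratios ran from 0.600 to 1.49 with a median of 0.948. Olfactory receptor genes, 1399 on these chromosomes in 96 of the 1 Mb bins, stood at the top with 483 young and 200 old peaks and a relative ratio of 1.49 (1.26 to 1.76). The family encodes the odorant receptors of the nose and lies in long clusters with few other genes. Pseudogenes with such a symbol are counted, and the protein-coding members alone had 434 and 180 peaks and a relative ratio of 1.49 (1.25 to 1.78). Against the ratio of their own bins the value was 1.14 (0.983 to 1.30), with an interval that includes 1. With each chromosome that holds young peaks of the family left out in turn, the relative ratio to the whole stayed between 1.38 (without chromosome 7) and 1.59 (without chromosome 10). The clusters differed among themselves: chr2:88000001-89000000 had 10 young and 15 old peaks at olfactory receptor genes, chr7:103000001-104000000 had 30 and 16, chr19:13000001-14000000 had 32 and 9, and chr10:129000001-130000000 had 29 and 3. The printed peaks of Olfr1466 and Olfr600 come from the third and the second of these.

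Vomeronasal type 1 receptor genes, which encode pheromone receptors, stood at the bottom, with 108 young and 18 old peaks and a relative ratio of 0.600 (0.343 to 0.995). Here the own bins gave the same, 0.579 (0.343 to 0.915), and this was the sole family of the 12 whose interval against its own bins left out 1. In chr13:22000001-23000000 these genes had 21 young and 2 old peaks, in chr6:57000001-58000000 14 and 1, and in chr7:10000001-11000000, the cluster of Vmn1r70, 11 and 7. Vomeronasal type 2 receptor genes, the other pheromone receptor family, had 121 and 36 peaks and a relative ratio of 1.07 (0.717 to 1.57). Against their own bins they were at 0.918 (0.643 to 1.27). Both intervals overlap those of type 1, and the difference between the families was not tested. These intervals are not adjusted for the 12 families compared.

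**Figure D5:**
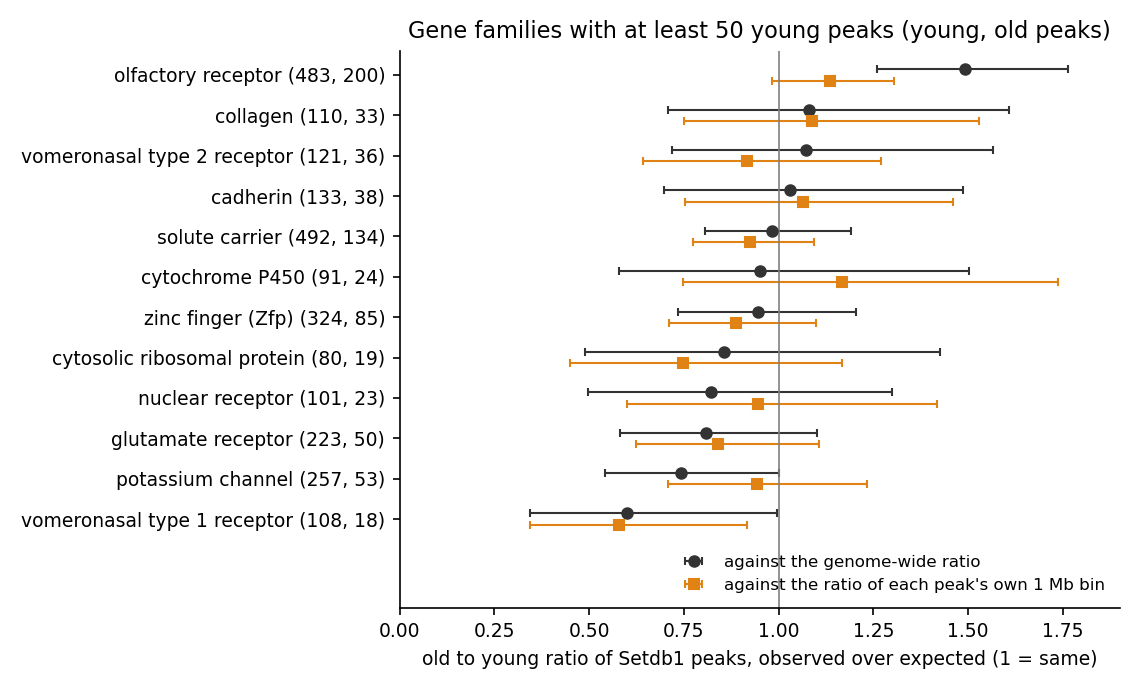
Old to young ratio of Setdb1 peaks in the bodies and 5 kb flanks of gene families with at least 50 young peaks, observed over expected, with 95% intervals for counting error and the young and old peak numbers beside each name. Circles use the genome-wide ratio and squares the ratio of each peak's own 1 Mb bin. Olfactory receptor genes move from 1.49 to 1.14 between them, and vomeronasal type 1 receptor genes stay at 0.600 and 0.579.

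Zinc finger genes with a Zfp symbol, of a class known as targets of the Kap1 pathway, had a relative ratio near 1. The 407 Zfp genes had 324 young and 85 old peaks, a relative ratio of 0.945 (0.735 to 1.20), and 19.8 young peaks per Mb, slightly below the genome-wide 20.6. In the same genes Kap1 peaks numbered 605 and 361 and had a relative ratio of 1.31 against the Kap1 lists as a whole. In chr17:21000001-22000000 Zfp genes had 9 young and 8 old Setdb1 peaks, and in chr8:87000001-88000000 11 and 0. The 8 other families between these and the extremes had intervals that included 1. They were collagen, cadherin, solute carrier, cytochrome P450, cytosolic ribosomal protein, nuclear receptor, glutamate receptor and potassium channel genes, the last at 257 and 53 peaks and 0.743 (0.542 to 1.00).

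Smaller families are given by their counts. Defensin genes had 23 young and 11 old peaks (relative ratio 1.72), keratin genes 14 and 6 (1.54) and conjugation enzyme genes 41 and 15 (1.32). Zinc finger genes of the SCAN type had 18 and 7 (1.40), bitter taste receptor genes 17 and 6 (1.27) and serpin genes 33 and 8 (0.873). The intervals of all of these included 1. Genes of the major histocompatibility complex had 13 young and 11 old peaks (relative ratio 3.05, 1.24 to 7.37), and 1.25 (0.625 to 2.24) against their own bins. Their old peaks lay at 8 of 45 genes (17.8%, against 18.4% of all protein-coding genes), with 3 at H2-M5 and 2 at H2-M11. Young peaks lay at 12 of the 45 (26.7%, against 44.7%). Complement and coagulation genes, which hepatocytes express strongly, had 21 and 9 peaks (1.54, 0.622 to 3.52). Against their own bins they were at 2.49 (1.14 to 4.73), the sole own-bin interval above 1 among the 26 families, for which number it is not adjusted. Old peaks lay at 6 of their 41 genes (14.6%, against 18.4% of all protein-coding genes) and young peaks at 13 (31.7%, against 44.7%). No old peak was found at Hox genes (6 young), histone genes (5), keratin-associated protein genes (11) or major urinary protein genes (1). For the largest of these counts, the 11 young peaks, the upper limit of the relative ratio at 0 old peaks was 1.44, so a ratio below the genome-wide one was not detectable.

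The 50 genes of lipid secretion and synthesis, a hand-made list of apolipoproteins, lipid transporters, lipogenic enzymes and their regulators, had 29 young and 3 old peaks, a relative ratio of 0.373 (0.0726 to 1.20) whose interval includes 1. Young peaks were at 19 of the genes (38%) and old peaks at 2 (4.0%), against 44.7% and 18.4% of all protein-coding genes. The cholesterol exporter gene Abcg1 had 4 young and 0 old peaks, the gene of acetyl-CoA carboxylase Acaca 3 and 0, Cd36 3 and 1, and Apob, Elovl6 and Gpam 2 and 0 each. Abca1, another cholesterol exporter, was the gene with peaks in old liver only, 0 young and 2 old. Within 5 kb of a start site, young peaks were found at Apob (3442 bp away), Apoc4 (1476 bp), Apom (2231 bp), Cd36 (1936 bp) and Cyp7a1 (738 bp, chr4:6276269-6276468, printed above), and an old peak only at Cd36 (3747 bp, chr5:17853439-17853638). Of the genes of the factors themselves, Setdb1, Hdac3 (a histone deacetylase) and Onecut1 each had 1 young peak in the gene body or its flanks, Trim28 had none, and none of the 4 had an old peak.

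Single genes hold few peaks unless they are long. Of 20807 protein-coding genes, 9305 had a young peak in the body or 5 kb flanks, 3837 an old peak, 2666 both and 1171 an old peak only. The genes with the most young peaks were Gm20388 with 75 (13 old), Cntnap2 with 73 (23 old), Fgfr2 with 59 (17 old), Csmd1 with 54 (13 old), Lsamp with 52 (11 old) and Dlg2 with 49 (22 old). Each is annotated over at least 1643 kb, and apart from the gene model Gm20388 and Fgfr2, a growth factor receptor gene, they encode adhesion, membrane or scaffold proteins known from neurons. The 6 with the most old peaks were Cntnap2, Dlg2, Csmd3 (41 young, 17 old), Fgfr2, Lingo2 (22 young, 16 old) and Csmd1, which shared its 13 with Gm20388, Magi2 and Nell1 and was taken by the order of symbols. Per Mb, Cntnap2 had 32.4 young and 10.2 old peaks, and Csmd3 33.6 and 13.9, both above the genome-wide densities. Gm20388, annotated over 4435 kb, was below them at 16.9 and 2.92 per Mb. Fgfr2, annotated over 2961 kb, was close to them at 19.9 and 5.72. Peaks were counted over the whole annotated span, whatever other genes lie in it, so a high count here follows the length of the span.

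At least 15 young peaks were held by 161 genes, counting 1 gene of each overlapping pair. Of these, 15 had a ratio at least 1.5 times above the genome-wide one (9.32%) and 57 at least 1.5 times below it (35.4%). These genes were kept for their young number alone, which leans their ratios towards low values, so nothing is read from the excess of the latter. The highest were Lingo2 at 2.62 (1.29 to 5.22), A830018L16Rik with 15 and 9 peaks, Nell1 with 24 and 13, Celf2 with 16 and 8 and Cdh12 with 21 and 10, and of the 5 only the interval of Lingo2 left out 1. Against its own bins Lingo2 was at 1.03 (0.588 to 1.67), but at 1245 kb the gene fills much of those bins. No old peak was found in 6 genes, which were Frmd4a (19 young), Slc9a9 (17), Dst (16), Grik1 (16), Samd12 (15) and St18 (15). The upper limits of their relative ratios ran from 0.772 for Frmd4a to 1.00 for Samd12 and St18. Frmd4a, a gene of epithelial polarity, and Samd12 each lie in a bin without any old peak, so no own-bin ratio exists for them.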

How the data were processed

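The peaks, lists and gene families were chosen with earlier results of these data known. The deposited files give peak positions only (chromosome, start and end, no measured value), 1 list per mark and age. The authors used BWA and mm10 (GRCm38) for alignment and Picard against duplicates, and discarded reads that align to more than 1 place. They pooled the replicates of an age, by their methods 3 for Setdb1 and H3K14ac and 2 for Kap1. A legend gives 2 for Setdb1. They called peaks on the pooled reads against input with PeakSeq, so the depth per sample is not known from the lists. From these lists, peaks were counted by midpoint with Python 3.11.15, numpy 2.4.6, pandas 2.3.3 and scipy 1.17.1. Chromosome names with trailing blanks were trimmed. GC content and soft-masking came from GRCm38.p6 and genes from GENCODE M21 (basic). Ratios carry exact (Clopper-Pearson) and shares Wilson 95% intervals, and own-bin values exact Poisson ones. The steps were tested on simulated data. No sample-level file was used.

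Named were the 5 bins with the highest and the 5 with the lowest ratio among those with at least 20 young peaks, the 3 with the most peaks at each age, the 6 genes with the most peaks at each age, the 5 genes with the highest and the 5 with the lowest ratio among those with at least 15 young peaks, up to 12 genes with start-site peaks at both ages, list genes with a peak within 5 kb of a start site, and families with at least 50 young peaks. Bins and genes tied for a last place, families below that number, the genes with peaks in the lipid list and those of Setdb1, Trim28, Hdac3 and Onecut1 were named after their values were seen. Sequences were the exon-free 200 bp peaks nearest a start site, plus the pair richest in the marked words, which was chosen after seeing the data. The alternatives tried were the chromosomes included, merging of neighbouring peaks, peak width, base pairs in place of peaks, repeat-rich peaks left out, the first part of each list, bin size and minimum, the start-site window, gene set and family flanks.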

Additional observations from a re-analysis of the deposited data

Results flagged for a closer look

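The X chromosome was not part of the comparison but has peaks in both Setdb1 lists. It held 1302 young and 197 old peaks, and its old to young ratio was 0.545 (0.467 to 0.634, 95% exact interval for counting error) times that of chromosomes 1 to 19. Its density was low at both ages, 7.96 young and 1.20 old peaks per Mb of known sequence. The mice were male and carry a single X chromosome, and the part of that in these numbers was not tested. For Kap1 the X chromosome was at 0.909 and for H3K14ac at 0.702 times their own ratios.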

How the results depend on the processing

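No paired analysis was possible because the replicates of an age were merged before peak calling, and for the same reason no replicate could be left out. Of the other ways of counting listed above, 67 values lay within the 95% counting interval of the main value and 12 moved beyond it. The relative ratio of the most gene-dense bins, 1.01, was between 0.979 and 0.996 with X and Y added, 500 kb bins, 2 Mb bins or bins with unknown bases left out and 0.987 with shifted bins, and that of Zfp genes, 0.945, was 1.11 with 50 kb flanks, each with an interval that includes 1. The relative ratios of the most gene-poor bins, the GC-richest bins and olfactory receptor genes did not cross 1. The remaining relative ratios in the text were not recounted in these ways. The share of bins past 1.5 times, 58.4%, was 70.9% with each list limited to its first 50% as deposited, 63.9% with 500 kb bins, 46.8% with 2 Mb bins and 55.1% with at least 20 young peaks per bin. Fewer or more peaks per bin account for a part of this by construction. The share of peaks within 1 kb of a start site was 4.38% in young and 4.67% in old liver without peaks that are at least 50% soft-masked, 17.2% and 17.3% within 5 kb, and 1.57% and 1.77% at starts of protein-coding transcripts only. With the first 50% of each list, olfactory receptor genes had a relative ratio of 2.20 (main value 1.49) and the GC-richest bins 0.742, and the cause was not tested. What the deposited order stands for is not given in the sources used here, so by what property this selects peaks is unknown, and the first part need not be like the rest. Of the ways of counting chosen after seeing the data, 4 values stayed within it and 2 moved: bins shifted by 500 kb gave 53.5%, and the ratio of their own bins gave 1.14 for olfactory receptor genes. Positions without read counts do not let depth or threshold be told apart from age in the number of peaks.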
